A study of Mus musculus with 4 samples.

Results

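The annexins were examined in mouse liver that lacked the histone methyltransferase G9a in its hepatocytes. The family was chosen by a measured value: *Anxa13* had a much higher signal on the arrays of G9aKO liver than on those of WT liver, and the other annexin genes were added to see how they compared with it. Of 10 listed annexin genes, 9 (*Anxa1* to *Anxa8* and *Anxa13*) had at least 1 probe set that names no other gene, out of 18193 genes with such a probe set on the array. *Anxa11* is named only by a probe set that also names other genes and was not analysed here. The *Anxa13* values below are therefore a description with no test, and the 8 other annexins were tested.

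RNA came from non-tumorous liver of 2 G9aKO and 2 WT mice, with 1 Mouse430_2 GeneChip array (45101 probe sets) per mouse. G9aKO mice (*G9a* ΔHep in the study's notation) carried Alb-Cre and 2 floxed *G9a* alleles, while WT mice carried Alb-Cre and intact *G9a*, so both groups carried Cre recombinase under the albumin promoter. This promoter is active in hepatocytes. The paper found residual G9a protein in whole G9aKO liver and ascribed it, as probable, to cells other than hepatocytes. All mice were males backcrossed to C57BL/6, were 30 weeks old, and had been given the carcinogen diethylnitrosamine (DEN, 25 mg/kg) at 15 days of age and then 22 weekly injections of the liver toxin carbon tetrachloride (CCl4, 0.5 ml/kg). The groups therefore differed in genotype and not in treatment, and liver without DEN and CCl4 was not analysed here.

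Annexins are proteins that bind membranes rich in acidic phospholipids, such as phosphatidylserine, when calcium rises. They share a conserved core of repeated domains and differ in their N-terminal tails, which carry the sites for partner proteins, and they take part in membrane traffic, membrane repair, inflammation and fibrinolysis. Annexin A13 is unusual in that its tail is myristoylated, which anchors it in membranes, and it is best known from the epithelium of intestine and kidney, where it takes part in transport to the apical membrane.

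A signal is the linear hybridisation intensity of a probe set after the MAS5 scaling of the authors, and each probe set also has a detection call of Present, Marginal or Absent. The arrays were alike in overall quality, with 43.9% and 42.8% of probe sets Present in G9aKO liver and 41.9% and 41.3% in WT liver, and the 95% quantile of Absent signals lay between 170.5 and 181.1. *Ehmt2*, which encodes G9a, had signals of 174 and 164, Absent on both arrays, in G9aKO liver, against 640.4 and 492, Present on both arrays, in WT liver. By the ratio of geometric means *Ehmt2* was 3.33-fold lower in G9aKO liver (adjusted p = 0.063, limma). Whether that probe set lies in the deleted exons was not determined. Genes were compared with limma on log2 signals, with p adjusted over the 10350 genes that had a detected probe set, and 33 were higher in G9aKO liver (0.319%) and 7 were lower (0.0676%), or 0.386% in either direction. The median log2 fold change of all tested genes was 0.02, and 53.4% lay above 0. Differences cannot be assigned to 1 cell type, since in whole liver fewer cells of a type and less RNA per cell cannot be told apart. With 2 mice per group, the smallest two-sided p of an exact permutation test is 0.333, and the limma tests draw their precision from the spread of all genes.

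*Anxa13* had signals of 5923 and 7567 in G9aKO liver, against 611 and 208 in WT liver, and was called Present on all 4 arrays. Both G9aKO arrays lay far above both WT arrays. The ratio of the geometric means was 18.8 (log2 fold change 4.23), and the ratio of a single G9aKO array to a single WT array ranged between 9.69 and 36.3. The G9aKO arrays differed from each other by 1.28-fold and the WT arrays by 2.93-fold, so the size of the ratio depended mostly on which WT array it was set against. The log2 fold change was 4.41 without G9aKO 1 and 4.05 without G9aKO 2, and it was 5.01 without WT 1 and 3.45 without WT 2. By log2 fold change, *Anxa13* had rank 6 from the top among the 10350 tested genes. It is 1 of the 33 genes called higher above, and since that contrast led to its choice, nothing is read from the call.

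**Figure D1:**
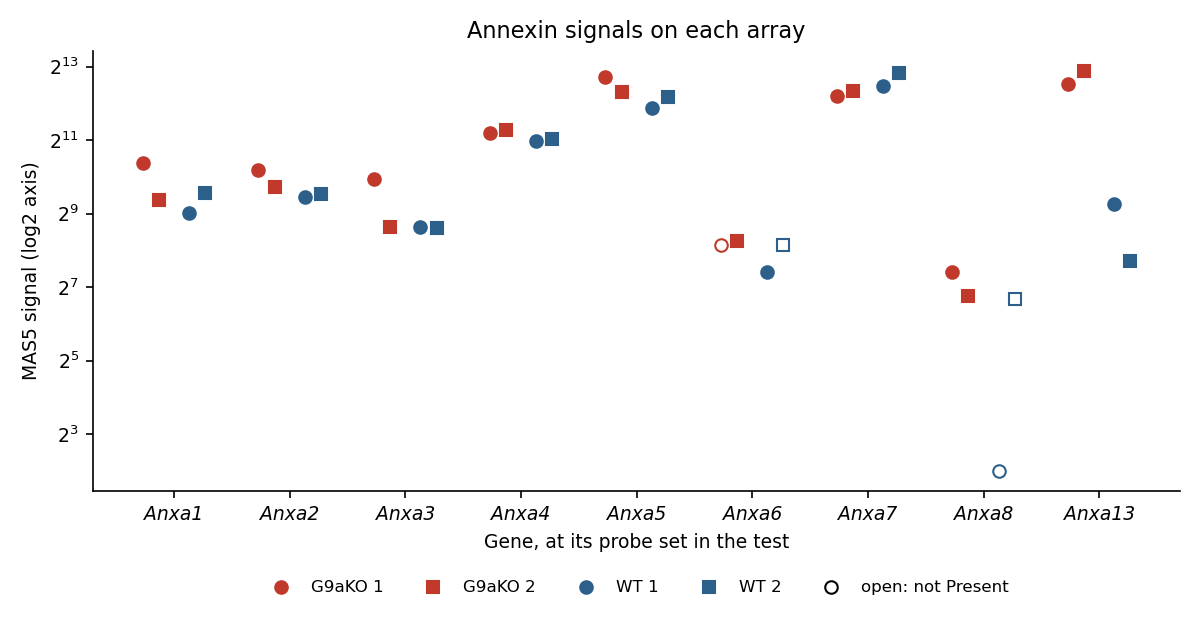
MAS5 signal (log2 axis) of 9 annexin genes on each of the 4 arrays, at the probe set used in the test, with G9aKO in red left of WT in blue and open symbols for signals not called Present. The *Anxa13* signals of 5923 and 7567 in G9aKO liver stand apart from 611 and 208 in WT liver, while the other genes lie closer together or, for *Anxa8*, near the detection limit. Heights are comparable within a gene and not between genes.

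Since annexin A13 is an intestinal protein, other genes of intestinal epithelium were listed beside it. *Cdx1*, *Cdh17* and *Muc2*, which encode a transcription factor of the gut, an intestinal cadherin and the main intestinal mucin, were not called Present on any array. *Cdx2*, another gut transcription factor, was Present on at most 1 G9aKO array at a probe set and on 0 WT arrays. Of the 7 listed intestinal genes, 3 passed the detection filter, and 2 of these lay above 0 (median log2 fold change 0.63, and 0.16 without WT 2). As the difference from the WT mean, the median of the 3 was 0.65 and 0.38 on the G9aKO arrays and 0.21 and -0.21 on the WT arrays, without overlap. Their summed signal overlapped, with 5666 and 10771 in G9aKO liver and 6814 and 9852 in WT liver, and was mostly that of *Fabp2*, a fatty acid binding protein of the intestine. By limma 0 of the 3 were called and 1, *Lgals4*, had an unadjusted p under 0.05, and by the methods' t-test 0 were called and 0 had one. Whether intestinal-type cells contribute to the *Anxa13* difference was not tested. *Lgals4* is described with the transport partners below. In the liver tumour list, *Afp*, the fetal alpha-fetoprotein, had signals of 3058 and 1159 in G9aKO liver, against 252 and 116 in WT liver. Both G9aKO arrays lay above both WT arrays, which holds for 22.3% of all tested genes. *Afp* was highest on G9aKO 1, unlike *Anxa13*, which was highest on G9aKO 2. The log2 fold change of *Afp*, a gene named after its values were seen, was 3.46 with an SE of 0.54 and did not pass the threshold (adjusted p = 0.0957). *Gpc3*, a glypican of liver tumours, had signals of 333 and 73.0 in G9aKO liver and 87.8 and 265 in WT liver, and the groups overlapped (log2 fold change 0.03). *Cd24a*, the remaining gene of that list, had signals of 1137 and 474 in G9aKO liver, against 259 and 195 in WT liver, without overlap. Its log2 fold change was 1.71 (adjusted p = 0.268, limma). The 3 genes of that list had a median log2 fold change of 1.71, of 1.08 without G9aKO 1 and of 2.34 without G9aKO 2. Their summed signals were 4529 and 1706 in G9aKO liver, against 599 and 575 in WT liver, with *Afp* as the largest part in G9aKO liver. Whether tumour cells or their precursors contribute to the *Anxa13* difference was not tested.

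*Anxa13* lies on chromosome 15, and the 5 nearest tested genes on each side were compared to see whether the surrounding genes differed as well. Of these 10 neighbours, 0 were called by limma, 0 had an unadjusted p under 0.05, and the methods' t-test gave 1 unadjusted p under 0.05 and 0 after adjustment. Their log2 fold changes ran between -0.44 for *Tatdn1* and 0.25 for *Atad2*, with 4 above 0 and 6 below 0 and a median of -0.11. The nearest tested gene on each side of *Anxa13* lay below 0. Genes without a detected probe set were passed over, so these need not be the adjacent genes. *Fbxo32*, a ubiquitin ligase subunit best known from muscle atrophy, had signals of 130 and 132 in G9aKO liver and 102 and 216 in WT liver, and the groups overlapped (log2 fold change -0.18, adjusted p = 0.918). *Fam91a1*, a vesicle-tethering factor of the trans-Golgi, had signals of 1680 and 1857 in G9aKO liver, against 2153 and 1972 in WT liver, without overlap and in the direction opposite to *Anxa13* (log2 fold change -0.22, adjusted p = 0.644). On the side of *Fbxo32*, *Wdyhv1*, an N-terminal glutamine amidase, had a value of -0.05, *Zhx1*, a zinc finger and homeobox protein, 0.21, and 9130401M01Rik 0.21. On the side of *Fam91a1*, *Tmem65*, a mitochondrial inner-membrane protein, had a log2 fold change of 0.05, *Rnf139*, a ubiquitin ligase of the endoplasmic reticulum, -0.29, and *Ndufb9*, a subunit of respiratory complex I, -0.23. The lowest adjusted p among the 10 was 0.508, for *Rnf139*.

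**Figure D2:**
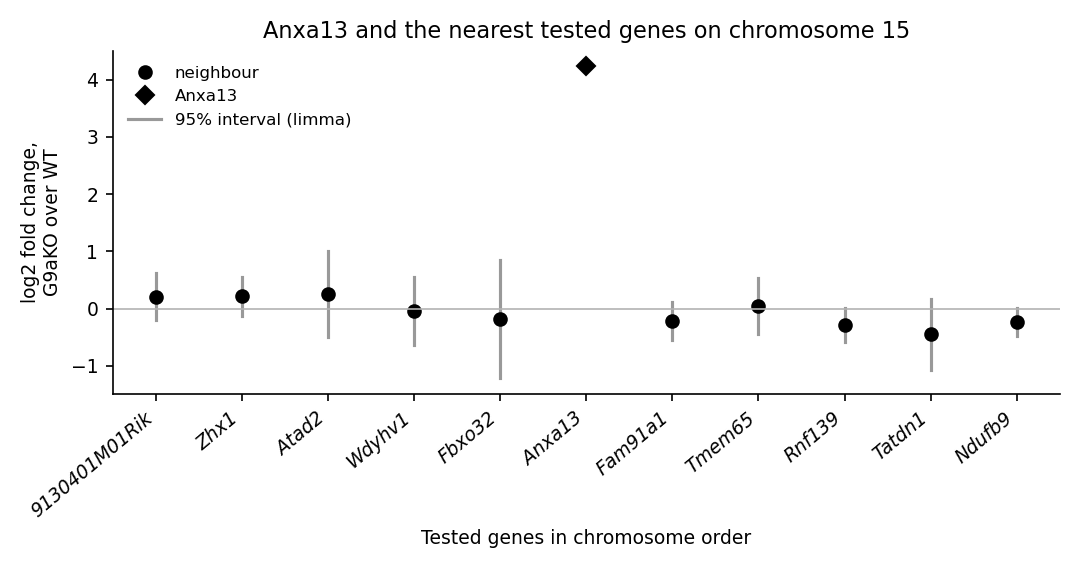
Log2 fold change, G9aKO over WT, of *Anxa13* (diamond, no interval because the gene was chosen on this contrast) and of the 5 nearest tested genes on each side on chromosome 15 (circles, with the 95% interval from limma). *Anxa13* lies at 4.23 and the 10 neighbours between -0.44 and 0.25, each with an interval that includes 0.

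The genes whose signals ran most like those of *Anxa13* over the 4 arrays were ranked by the distance between log2 profiles, each centred on its own mean. These values describe likeness over 4 arrays of 2 groups and carry no test. *Stap1*, a signalling adaptor of blood cells, was nearest (distance 0.63), with signals of 1007 and 1281 in G9aKO liver and 160 and 54.6, Absent on both arrays, in WT liver. The measured ratio for *Stap1* was 12.1 by geometric means and 10.6 by arithmetic means, and neither is a firm bound. *Asns*, the asparagine synthetase, followed at a distance of 0.85, with signals of 5355 and 4441 in G9aKO liver and 659 and 271 in WT liver. The third was *Enho* (0.86), which encodes the secreted peptide adropin and had signals of 1613 and 1480.1 in G9aKO liver and 203 and 92.6, Absent on both arrays, in WT liver. These 3 genes shared with *Anxa13* a WT 1 signal well above that of WT 2. Likeness on the WT arrays was part of how the genes were chosen, so nothing is read from it. *Spink5*, a serine protease inhibitor of epithelia, lay at a distance of 0.93. Its signals were 174 and 164 in G9aKO liver and 31.6 and 7.97 in WT liver, so WT 1 again lay above WT 2. All 4 lay within the range of Absent signals on these arrays. *Col5a2*, a fibrillar collagen chain with signals of 10080 and 8555 in G9aKO liver and 426 and 288 in WT liver, lay at 0.96. No other annexin was among these 5 genes, as their smaller log2 fold changes alone place them farther from *Anxa13*.

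Of the 8 annexins other than *Anxa13*, 0 were called by limma, 1 (*Anxa5*, 12.5%) had an unadjusted p under 0.05, and adjusted p ranged between 0.466 and 0.702. Over all tested genes 0.386% were called and 1037 (10.02%) had an unadjusted p under 0.05, so neither count of annexins lay far from its background. The methods' t-test likewise called 0 after adjustment and gave 1 unadjusted p under 0.05, for *Anxa4*. The log2 fold change lay above 0 for 7 of the 8, with a median of 0.48, against a median of 0.02 over all tested genes. Both G9aKO arrays lay above both WT arrays for 5 of them, which holds for 22.3% of all tested genes, and below both WT arrays for 1 of them, which holds for 19.3%. One of the 5, *Anxa8*, passed the detection filter only through G9aKO liver. Without it the higher count was 4 of 7 and the median 0.47. The median of the 8 was 0.25 without G9aKO 1 and 0.70 without G9aKO 2, and it was 0.32 without WT 1 and 0.64 without WT 2. Under median centring all values shift by 0.12 towards WT. The smallest of the 7 values above 0 was 0.22 (*Anxa4*), so this shift could not bring any of them below 0.

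**Figure D3:**
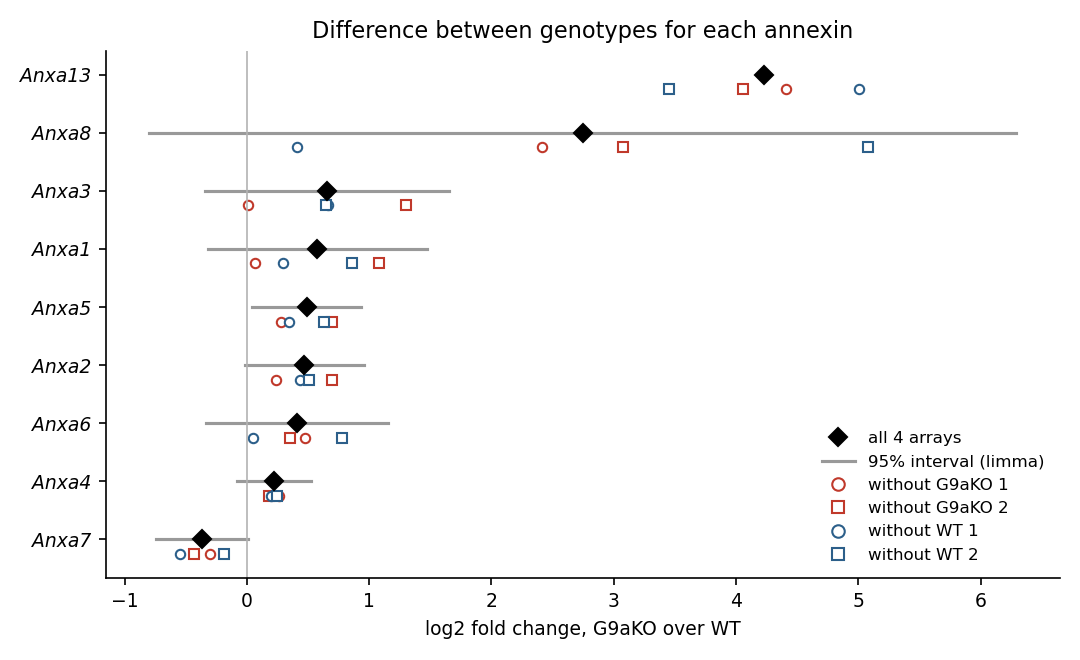
Log2 fold change, G9aKO over WT, of each annexin at its tested probe set (diamond), with the 95% interval from limma for the 8 tested genes and the value without each array in turn (red without a G9aKO array, blue without a WT array). *Anxa13* lies at 4.23 with no interval, 7 others lie above 0, *Anxa7* lies at -0.37, and the interval of *Anxa5*, 0.04 to 0.93, is the only one that leaves out 0.

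Annexin A5 binds phosphatidylserine on the outer face of membranes, and its labelled form is the common stain for dying cells. *Anxa5* had signals of 6766 and 5065 in G9aKO liver, against 3777 and 4615 in WT liver, Present on all 4 arrays. Both G9aKO arrays were higher, G9aKO 1 clearly and G9aKO 2 only slightly above WT 2. Its log2 fold change was 0.49 (SE 0.18, unadjusted p = 0.036, adjusted p = 0.466), and without G9aKO 1 it was 0.28.

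Annexin A1 is an anti-inflammatory protein that acts through formyl peptide receptors. *Anxa1* had signals of 1328 and 657 in G9aKO liver, against 516 and 760.1 in WT liver, and the groups overlapped. Only G9aKO 1 lay above both WT arrays. The log2 fold change was 0.58 (SE 0.37, adjusted p = 0.654) and was 0.07 without G9aKO 1. A second *Anxa1* probe set was Absent on all 4 arrays, with signals no higher than 45.8.

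Annexin A2 pairs with S100A10 at the cell surface, where the complex binds plasminogen and its activator. *Anxa2* had signals of 1170.3 and 852 in G9aKO liver, against 704 and 739 in WT liver, without overlap. Its log2 fold change was 0.47 (SE 0.20, adjusted p = 0.511) and was 0.24 without G9aKO 1. The 2 other *Anxa2* probe sets were Absent on all 4 arrays and overlapped.

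Annexin A3 is abundant in neutrophils. *Anxa3* had signals of 974 and 398.3 in G9aKO liver, against 397.9 and 393 in WT liver. The groups did not overlap, but G9aKO 2 and both WT arrays were nearly equal and G9aKO 1 alone stood above them. The log2 fold change was 0.65 (SE 0.41, adjusted p = 0.648) with all arrays and 0.01 without G9aKO 1.

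Annexin A4 is an epithelial annexin that organises the membranes on which it assembles. *Anxa4* had signals of 2329 and 2472 in G9aKO liver, against 2017 and 2098 in WT liver, a small difference without overlap (log2 fold change 0.22, SE 0.13, adjusted p = 0.618). Its other 2 probe sets were also Present on all 4 arrays and also without overlap. They had signals of 1106 and 974 in G9aKO liver against 924 and 862 in WT liver (log2 difference 0.22), and of 455 and 605 against 407 and 337 (0.50). *Anxa4* was thus the only tested annexin with several probe sets that were all Present on every array and all gave the same direction. Under median centring the value at the tested probe set was 0.10.

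Annexin A6, the largest annexin, carries a doubled core and is tied to cholesterol traffic in late endosomes. *Anxa6* had signals of 281 (Absent) and 306 (Present) in G9aKO liver, against 171 (Present) and 284 (Absent) in WT liver, which overlapped (log2 fold change 0.41, SE 0.30, adjusted p = 0.702). Without WT 1 the value was 0.05. The 3 other *Anxa6* probe sets also had a higher log2 mean in G9aKO liver, by 1.22, 1.01 and 0.60, but none was Present on all 4 arrays.

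Annexin A7, also called synexin, has a long N-terminal tail and promotes the fusion of secretory granules. *Anxa7* was the only tested annexin with a value below 0, and had signals of 4742 and 5196 in G9aKO liver, against 5654 and 7262 in WT liver, without overlap (log2 fold change -0.37, SE 0.15, adjusted p = 0.501). Its probe sets did not agree in direction. The second gave 926 and 1045 in G9aKO liver and 957 and 1522 in WT liver (log2 difference -0.30, overlapping), and the third gave 262 and 265 in G9aKO liver and 145 and 214 in WT liver (0.58, without overlap). All 3 were Present on every array, and the mean over them was -0.03.

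Annexin A8 is an epithelial annexin linked to late endosomes. *Anxa8* had signals of 172 and 108, Present on both arrays, in G9aKO liver, against 4.02 and 102, Absent on both arrays, in WT liver. The groups did not overlap, although G9aKO 2 and WT 2 were nearly equal and all 4 signals lay within the range of Absent signals on these arrays. The ratio of arithmetic means was 2.63, and that of geometric means, with WT 1 raised to the lowest Present signal of its array, was 2.93 (adjusted p = 0.587 for the unraised values). Neither is a firm bound, since the log2 fold change was 0.41 without WT 1. Its other probe set was Absent on all 4 arrays. *Anxa9* and *Anxa10*, annexins outside the list, were Absent on all 4 arrays at each of their probe sets.

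**Figure D4:**
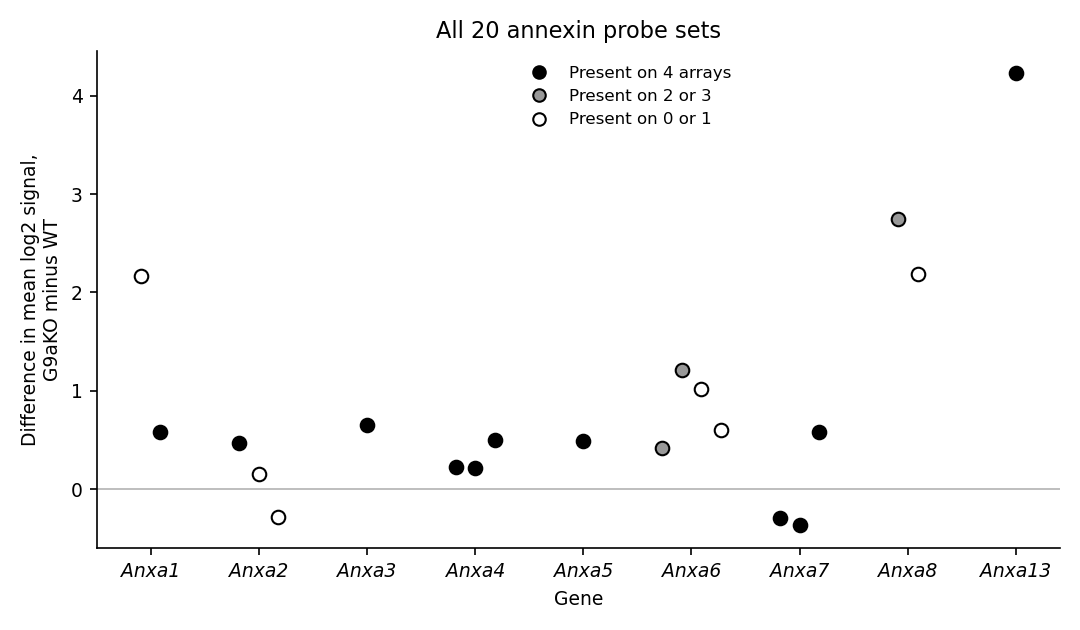
Difference in mean log2 signal, G9aKO minus WT, at each of the 20 annexin probe sets, 1 point per probe set, filled by the number of arrays on which it was called Present. The single *Anxa13* probe set lies at 4.23, the 3 *Anxa4* points and the 4 *Anxa6* points lie above 0, and the 3 *Anxa7* points fall on both sides of 0 (-0.37, -0.30 and 0.58).

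Of the 20 probe sets, 14 passed the detection filter, 11 were Present on all 4 arrays and 5 were Absent on all 4. *Anxa13*, *Anxa3* and *Anxa5* each rested on a single probe set, so no other probe set could be set beside them.

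The tested annexins did not vary together across the arrays. *Anxa1*, *Anxa2*, *Anxa3*, *Anxa5* and *Anxa8* had their highest signal on G9aKO 1, *Anxa4*, *Anxa6* and *Anxa13* on G9aKO 2, and *Anxa7* on WT 2. On the log2 scale G9aKO 1 lay above G9aKO 2 by 1.01 for *Anxa1*, 1.29 for *Anxa3*, 0.46 for *Anxa2* and 0.42 for *Anxa5*, while for *Anxa13* the difference was -0.35.

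G9aKO 1 also carried the highest summed signal of several marker lists for cells other than hepatocytes. For stellate cells and myofibroblasts, 6 of 8 markers were tested, with summed signals of 6918 and 3751 in G9aKO liver and 3445 and 3665 in WT liver. The 8 macrophage and Kupffer cell markers summed to 53380 and 33662 in G9aKO liver and 23343 and 35548 in WT liver. The 3 tested neutrophil markers of 6 summed to 2410 and 390.4 in G9aKO liver and 1124 and 758 in WT liver, and *Ltf* and *Camp*, which encode neutrophil granule proteins, were not called Present on any array. By summed signal G9aKO 2 lay slightly above both WT arrays in the first list, between them in the second and below them in the neutrophil list. By the median difference from the WT mean it lay above both WT arrays in the first 2 lists. For stellate markers it was 0.18, against -0.05 and 0.05, and for macrophage markers 0.22, against -0.19 and 0.19. Without G9aKO 1, 5 of the 6 stellate and 6 of the 8 macrophage markers lay above 0. The highest array was thus the same for these lists as for *Anxa1*, *Anxa2*, *Anxa3*, *Anxa5* and *Anxa8*.

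The 2 tested cholangiocyte markers of 8 summed to 738 and 436 in G9aKO liver, against 248 and 204 in WT liver, and did not overlap. *Pkhd1* had signals of 478 and 286 in G9aKO liver, against 74.8 and 120 in WT liver. *Sox9* overlapped, with 260 and 149 against 173 and 83.9. *Krt7*, *Krt19*, *Epcam*, *Cldn7* and *Cftr*, which were not tested, were each Present on at most 1 G9aKO array at a probe set and on 0 WT arrays. The 6 hepatocyte markers summed to 342026 and 305144 in G9aKO liver and 349061 and 326515 in WT liver, and the 5 tested endothelial markers to 9065 and 8571 in G9aKO liver and 10700 and 8619 in WT liver, and the groups overlapped in both lists. All 6 hepatocyte markers were Present on all 4 arrays. Of the 39 tested markers in all lists, 0 were called by limma or by the methods' t-test, and 8 by limma (20.5%, against 10.02% of all tested genes) and 1 by the t-test had an unadjusted p under 0.05. The part of the other cell types in the annexin differences was not tested.

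**Figure D5:**
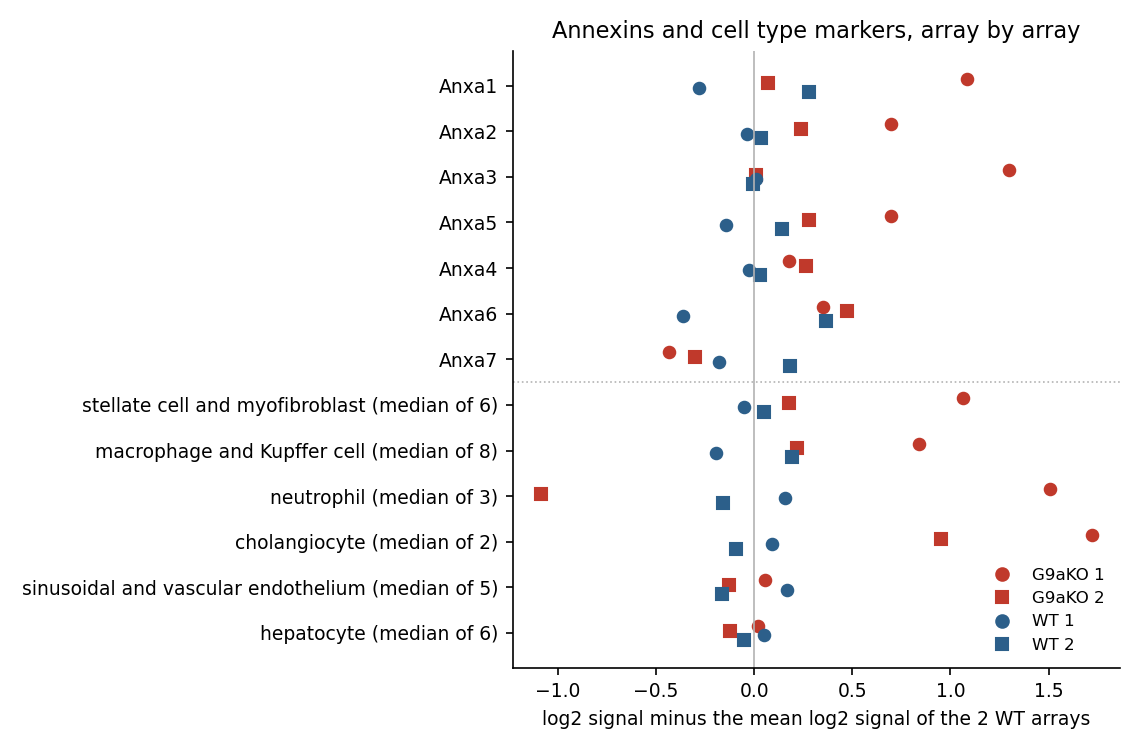
Log2 signal of 7 annexins (above the dotted line) and median over the tested markers of 6 cell type lists (below it), on each array, as the difference from the mean log2 signal of the 2 WT arrays. *Anxa1*, *Anxa2*, *Anxa3* and *Anxa5* and the stellate, macrophage, neutrophil and cholangiocyte medians have G9aKO 1 (red circle) farthest to the right, and the hepatocyte median lies between -0.12 and 0.05 on all 4 arrays.

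Genes that act with annexins were counted in 7 lists, with 52 tested genes in all. By limma 0 of the 52 were called, against 0.386% of all tested genes, and 2 (3.85%) had an unadjusted p under 0.05, against 10.02%, while the methods' t-test called 0 and gave 1 unadjusted p under 0.05. Among S100 proteins, calcium sensors that bind annexin tails, 3 of 4 tested genes lay above 0 (median 0.50, and 0.36 without G9aKO 1 and 0.82 without G9aKO 2). *S100a10*, the partner of annexin A2, had signals of 14249 and 18615 in G9aKO liver, against 7022 and 9849 in WT liver, without overlap (log2 fold change 0.97, SE 0.20, unadjusted p = 0.00308, adjusted p = 0.188). Unlike *Anxa2*, *S100a10* was highest on G9aKO 2. *S100a4* had signals of 269 and 100.01 in G9aKO liver, against 70.3 and 63.2 in WT liver, and was highest on G9aKO 1 (log2 fold change 1.30, adjusted p = 0.499). It was Present on only 1 G9aKO and 1 WT array, and its signals other than that of G9aKO 1 lay within the range of Absent signals.

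In the plasminogen system, which annexin A2 and S100A10 serve at the cell surface, 4 of 5 tested genes lay above 0 (median 0.29, and -0.15 without G9aKO 1). The plasminogen receptor gene *Plgrkt*, Present on only 1 G9aKO and 1 WT array, had a log2 fold change of 0.74 (adjusted p = 0.529). The urokinase receptor gene *Plaur* had one of 0.32 (adjusted p = 0.728). The formyl peptide and eicosanoid list, which covers the receptors of annexin A1 and the phospholipase it restrains, had 3 tested genes of 8, and all 3 lay above 0 (median 0.62, and 0.24 without G9aKO 1 and 0.99 without G9aKO 2). *Alox5ap*, needed for leukotriene synthesis, had signals of 617 and 359 in G9aKO liver, against 316 and 249 in WT liver (log2 fold change 0.75, adjusted p = 0.501). *Pla2g4a*, the cytosolic phospholipase A2, had signals of 440.1 and 260.2 in G9aKO liver, against 203 and 241 in WT liver (0.62, adjusted p = 0.574), and for both genes G9aKO 1 was highest.

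Membrane repair genes, which annexins join at torn membranes, were split, with 6 of 10 tested above 0 and a median of 0.01. The large scaffold gene *Ahnak* had a log2 fold change of 0.59 (adjusted p = 0.582) and *Pef1*, a calcium-binding partner of ALG-2, one of -0.31 (adjusted p = 0.581). Among genes for the exposure of phosphatidylserine and the uptake of cells that expose it, 11 of 15 lay above 0 (median 0.15, and -0.12 without G9aKO 1 and 0.40 without G9aKO 2). The scramblase-family genes *Plscr1* and *Plscr3* had values of 0.43 (adjusted p = 0.566) and 0.42 (adjusted p = 0.618).

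The last 2 lists concern annexin A13 itself. Of the apical transport genes and partners of the ubiquitin ligase NEDD4, which binds annexin A13, 9 of 11 tested lay above 0 (median 0.13, and between 0.02 without G9aKO 1 and 0.45 without G9aKO 2). *Lgals4*, a galectin of apical transport in gut epithelium, had signals of 802 and 836 in G9aKO liver, against 590.1 and 440.0 in WT liver, without overlap (log2 fold change 0.68, SE 0.20, unadjusted p = 0.0142, adjusted p = 0.346). *Stx3*, the apical syntaxin, had a value of 0.43 (adjusted p = 0.586). The N-myristoylation list covers the myristoyltransferases, which attach the lipid found on annexin A13, and methionine aminopeptidases. It had 1 of 4 genes above 0 (median -0.11), with *Metap2*, a methionine aminopeptidase, at -0.25 (adjusted p = 0.563) and *Nmt1*, a myristoyltransferase, at -0.18 (adjusted p = 0.688).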

How the data were processed

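Total RNA of non-tumorous liver from 2 G9aKO and 2 WT mice was hybridised to 1 Mouse430_2 array each, and groups were taken from the labels, which state no batch, date or pairing. The deposited signals are an intensity on a linear scale that the authors computed with MAS5 (version not given in the sources used here), scaled to a trimmed mean of 500.0 on each array. The deposited files also hold a detection p-value and call per probe set, as the authors' software gave them. The series matrix held the same signals. No further normalization was applied.

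Symbols came from the array annotation, and 34741 probe sets were matched by Entrez identifier to RefSeq genes of GRCm38.p6, which changed 0 symbols. A gene was its brightest single-gene probe set Present on at least 2 arrays, which gave 10350 genes. Log2 signals were compared with limma 3.58.1 (R 4.3.3, eBayes with a mean-variance trend, 2 residual and 4.02 prior degrees of freedom), with Benjamini-Hochberg adjustment and a threshold of 0.05. Where no array of a group was Present, a fold was given as a ratio of geometric means. Signals below the lowest Present signal of an array (16.0 to 21.1) were raised to it. Among the folds given this way, only that of *Anxa8* had a raised signal, and none is a firm bound. The limma p-values combine the spread between these mice with that of all genes, through the prior degrees of freedom. Those of the methods' t-test rest on the spread between these mice alone. Precision is limited by the number of arrays. The script was tested on simulated data.

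The annexin members, the gene lists and the tests were chosen with earlier results of these data known. Named genes were all annexins, the 2 genes of smallest p in each list of annexin partners, 5 neighbours on each side of *Anxa13*, the 5 genes with the most similar profile, and *Ehmt2*. Marker genes named beside them fall outside that rule and were chosen after their values were seen. They were *Afp*, *Gpc3*, *Cd24a*, *Cdx1*, *Cdx2*, *Cdh17*, *Muc2*, *Fabp2*, *Ltf* and *Camp*. From the cholangiocyte list they were *Pkhd1*, *Sox9*, *Krt7*, *Krt19*, *Epcam*, *Cldn7* and *Cftr*. The marker lists not described in the results had 1 tested T and NK cell gene (log2 fold change -0.46) and 2 B and plasma cell genes (median 0.42). Alternatives were median centring, quantile normalization, other detection filters, a pseudocount of 50, other probe set rules, no trend, the two-sided Student test of the study's methods (called the methods' t-test) and leaving out each array.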

Additional observations from a re-analysis of the deposited data

How the results depend on the processing

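Over all genes the counts of calls depended strongly on the processing. Against 33 genes higher and 7 lower in G9aKO liver, 11 and 4 were called with no detection filter, and 19 were called higher with genes Present on all 4 arrays. Without a mean-variance trend limma called 0 in either direction (at an unadjusted p under 0.05, 645 were higher and 318 lower), and the methods' t-test called 0 (449 higher and 406 lower). Leaving out 1 array gave 8 to 54 genes higher and 0 to 17 lower. With G9aKO 2 left out the counts were 54 and 17, with G9aKO 1 left out 9 and 6, and with either WT array left out 8 and 0. In such fits the lone array is assumed to vary like the other group. The cause was not tested.

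The *Anxa13* log2 fold change lay between 3.45 and 5.01, with the extremes set by which WT array was left out. It was chosen on this contrast and its groups lay far apart, so none of these settings could reverse it. The 8 other annexins, the 52 genes that act with annexins and the 10 neighbours had 0 calls in every setting that used all 4 arrays. At the tested probe set, or the mean of the detected ones, the 8 annexins kept their direction wherever they were measured. Settings that change only the trend or the test leave the log2 fold change as it was and could not reverse it. For annexins whose groups did not overlap, leaving out 1 array could not reverse it either. Another *Anxa7* probe set, Present on all 4 arrays, lay at 0.58, opposite to -0.37 at the tested one. *Anxa6* and *Anxa8* were not measured when all 4 arrays had to be Present. Some neighbours changed sign when 1 array was left out, with log2 fold changes of -0.043 to 0.55 for *Atad2*, -0.24 to 0.14 for *Wdyhv1*, -0.72 to 0.35 for *Fbxo32* and -0.13 to 0.22 for *Tmem65*. *Tmem65* was -0.077 under median centring, and *Tatdn1* was 0.019 at another probe set when all 4 arrays had to be Present. No paired analysis was possible because the labels give no replicate number shared between the groups. Signals under about 181.1, among them all those of *Anxa8*, lie within the range of Absent signals.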
